A study of Mus musculus with 6 samples.

Results

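The genes described here are the collagens, laminins, other matrix proteins, matrix proteases with their inhibitors, and integrins of a list of 39 genes, followed in mouse embryonic stem cells in which signalling by activin and Nodal was raised or blocked. The members were listed by name, with earlier results of these data known. Each was represented by its brightest probe set, the one with the highest mean over the 6 arrays. A probe set annotated with a single gene symbol was found for 36 of the 39, out of 18193 genes measured in this way. No such probe set was matched to Fbn1 or Spp1, and the probe sets of Loxl2 carry several symbols, so those 3 genes were not analysed here. All cells were E14Tg2a, an established feeder-independent embryonic stem cell line, and every group was kept in N2B27, a serum-free medium, to which 20 ng/ml BMP4 and 1000 U/ml LIF were added. The 3 groups of 2 arrays were untreated control cells, cells given activin at 10 ng/ml for 2 h, and cells given SB431542 at 5 µM for 24 h. The durations of the treatments therefore differ, and the labels name no vehicle for the untreated cells. The labels of the inhibitor arrays also use the spelling SB432542. Nothing in the labels ties the duplicates to separate cultures, so the p-values describe only how these arrays vary, and that variation may be technical.

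Activin and Nodal bind type II and type I receptor kinases, which phosphorylate Smad2 and Smad3. These join Smad4 and bind DNA, while SB431542 blocks the type I receptors of the activin, Nodal and TGF-beta branch. Matrix genes such as fibrillar collagens, fibronectin and matrix protease inhibitors are long known as targets of the TGF-beta family in fibroblasts. Embryonic stem cells make a matrix of laminins, type IV collagen, nidogens and perlecan, the components of a basement membrane, which they bind mainly through integrins that share the beta 1 chain.

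The DNA just before the start site of Sparc, Tgfbi and Mmp14 is shown because these members lay on opposite sides of control after SB431542. Sparc was higher and Tgfbi and Mmp14 were lower in intensity on the SB431542 arrays. The difference of Mmp14 just missed the test threshold, as given below. The sequences are from RefSeq on the mouse build GRCm38.p6, read 5′ to 3′ on the gene's strand, and each covers the 250 bases before the start. Capitals mark CAGAC or its reverse complement GTCTG, a form of the Smad-binding element. The shorter core AGAC or GTCT on its own was not marked or counted. Sparc lies at chr11:55420081-55420330 on the minus strand, Tgfbi at chr13:56609336-56609585 on the plus strand, and Mmp14 at chr14:54431348-54431597 on the plus strand.
Sparc: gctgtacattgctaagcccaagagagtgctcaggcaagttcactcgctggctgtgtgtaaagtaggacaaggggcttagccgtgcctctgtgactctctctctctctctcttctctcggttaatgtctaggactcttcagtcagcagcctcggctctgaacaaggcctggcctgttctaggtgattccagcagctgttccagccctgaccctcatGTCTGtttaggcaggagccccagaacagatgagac
Tgfbi: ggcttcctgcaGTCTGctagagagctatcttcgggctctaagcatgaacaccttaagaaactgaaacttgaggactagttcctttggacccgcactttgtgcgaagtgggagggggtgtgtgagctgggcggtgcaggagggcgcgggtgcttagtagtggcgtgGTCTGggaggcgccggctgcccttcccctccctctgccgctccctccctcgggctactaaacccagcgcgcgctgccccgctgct
Mmp14: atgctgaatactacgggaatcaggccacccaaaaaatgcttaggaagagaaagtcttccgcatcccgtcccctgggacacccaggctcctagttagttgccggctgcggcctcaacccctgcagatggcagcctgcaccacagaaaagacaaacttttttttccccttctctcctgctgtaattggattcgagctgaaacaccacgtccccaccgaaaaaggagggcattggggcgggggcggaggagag
The Sparc window holds 1 match, starting 35 bases before the start site. The Tgfbi window holds 2, starting 239 and 85 bases before it, and neither CAGAC nor GTCTG is in the Mmp14 window. Among the promoter windows of all genes, 42.2% of 32851 hold at least 1 match in the same 250 bases. Of the 25 members with a window in this set (28 windows), 13 hold one, so the letters are about as frequent among the members as elsewhere. The GC box GGGCGG, or CCGCCC on the other strand, is in 20 of the 28 member windows and in 32.7% of all windows. The Mmp14 window has 2 copies, the Tgfbi window 1 and the Sparc window 0. The TATA sequence TATAAA or TTTATA is in 2 of the 28 member windows and in 12.4% of all windows. CCAAT or ATTGG is in 10 of the 28 member windows and in 33.8% of all windows. Matches of different motifs share a base only in the Mmp14 window, where an ATTGG and a GGGCGG have 1 in common, and a match says only that the letters are present. Col4a1 and Col4a2, the genes of the main type IV collagen chains, share a start region on chromosome 8. Their RefSeq starts are 21 bases apart on opposite strands, so that each gene's promoter window runs into the other gene.

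Each of the 6 arrays gave a value for every probe set. The median intensity over all probe sets ran from 37 to 49. All arrays were fitted together with limma on log2 intensities, with adjustment over 45037 probe sets and a threshold of 0.05. With its default settings no member passed in any comparison, so each count is also given with a prior variance that follows intensity and with robust estimation, here called the intensity trend. Rose and fell are used below only for members that passed with the intensity trend. The arrays carry no detection call. On the log2 scale, 27 probe sets for unspiked Bacillus transcripts ranged from 3.00 to 5.09, and 32 of the 36 members had a mean above that range. Col3a1, Col6a1, Postn and Dcn did not. Levels were not compared between probe sets, and because RNA came from whole cultures, fewer cells of a type and less RNA per cell cannot be told apart.

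SB431542-treated cells were set against untreated cells to ask which matrix genes depend on continuing activin and Nodal signalling. With the intensity trend, 8 of the 36 members changed, against 6.48% of all genes. Col1a1, Fn1, Thbs1, Tgfbi and Timp1 fell, and Col4a1, Sparc and Itga6 rose, with changes of 1.25-fold to 1.97-fold. Over all genes, 4.25% rose and 2.23% fell. With limma's default settings 0 of 36 passed, against 0.0275% of all genes, and the smallest adjusted p was 0.226. At an unadjusted p under 0.05, 12 members stood out, against 13.7% of all genes. The members are bright on these arrays, and among the 18 with a mean over log2 8, 6 changed with the intensity trend, where 13.1% of all genes that bright did. The SB431542 arrays lay wholly below the control arrays for 18 members and wholly above for 8, against 22.4% and 23.9% of all genes. The median log2 difference over the members was −0.19, with 24 of 36 below 0, against 50.5% of all genes. The median over all genes was −0.0021.

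**Figure D1:**
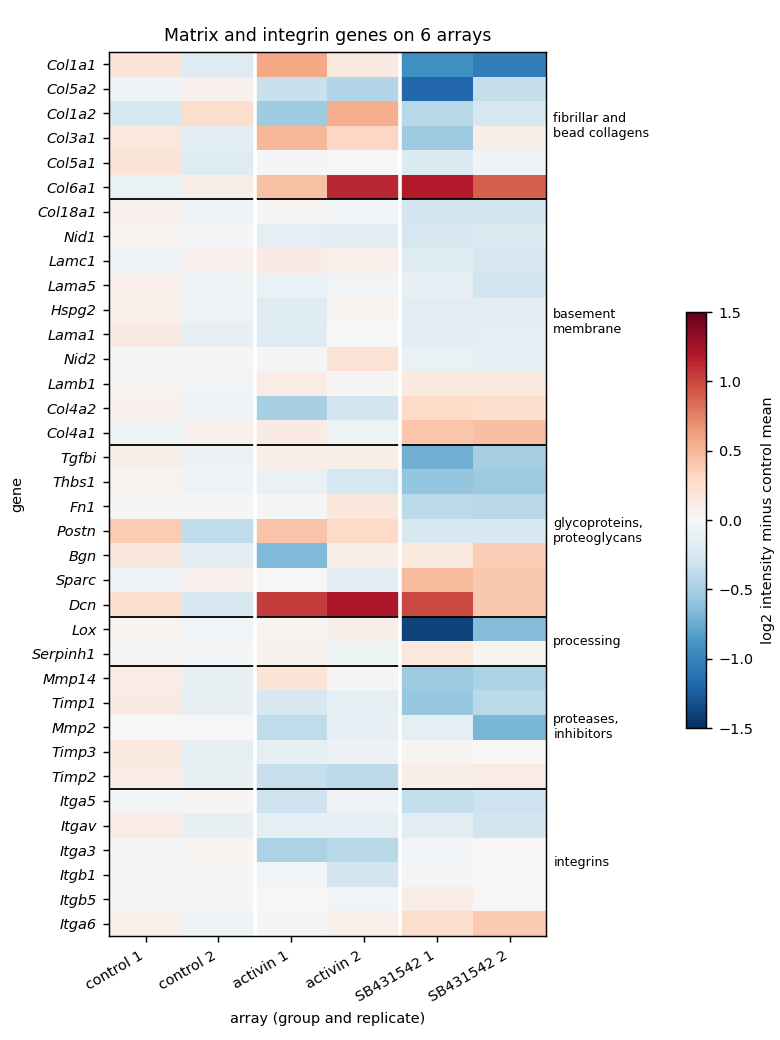
Log2 intensity of each of the 36 members on each of the 6 arrays, minus the mean of the control arrays of that gene, with members as rows ordered by role and arrays as columns. Most cells of the SB431542 columns are below 0, and Sparc, Col4a1, Itga6 and Col6a1 are among the exceptions.

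Among the fibrillar collagens and collagen VI, 1 of 6 members changed, against 6.48% of all genes. Classes this small are described and were not tested as classes. Col1a1, which encodes the alpha 1 chain of type I collagen, had intensities of 108 and 83 in control cells and 50 and 46 after SB431542. The inhibitor arrays were both below the control arrays. It fell by 0.98 on the log2 scale (SE 0.21), which is 1.97-fold (adjusted p = 0.0172 with limma's intensity trend, 0.226 by default). The second Col1a1 probe set differed by −0.64 (adjusted p = 0.310 with limma's intensity trend). Col1a2, whose chain joins that of Col1a1 in type I collagen, read 53 and 77 in control cells and 48 and 53 after SB431542. The groups met at 53, and the log2 difference was −0.34 (SE 0.38). Col5a2, a chain of the type V collagen found within type I fibrils, read 65 and 71 against 30 and 53, a log2 difference of −0.77 (SE 0.28) that did not pass. Its groups did not overlap, but the inhibitor arrays lay far apart. Col3a1 and Col5a1 differed by −0.22 and −0.13. Col6a1, a chain of the beaded filament collagen VI, went the other way. Its intensities were 20 and 23 in control cells and 49 and 40 after SB431542, a log2 difference of 1.05 (SE 0.26, adjusted p = 0.0916 with limma's intensity trend). All control values were within the range of the bacterial probe sets, so the fold is uncertain.

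The basement membrane members had small differences. All 10 had SB431542 arrays outside the range of the control arrays, 3 of them higher and 7 lower by the brightest probe set. Over all genes 23.9% lay wholly higher and 22.4% wholly lower. Of the 6493 genes with a mean over log2 8, 3870 lay outside the control range on either side. The differences of the 10 members ran from −0.28 to 0.44 on the log2 scale. With the intensity trend 1 passed, against 6.48% of all genes. Col4a1, the alpha 1 chain of the type IV collagen network, read 419 and 461 in control cells and 588 and 603 after SB431542. The inhibitor arrays lay close together and above both controls. Col4a1 rose by 0.44 (SE 0.13), or 1.35-fold (adjusted p = 0.0274 with limma's intensity trend, 0.311 by default), and its second probe set by 0.60 (adjusted p = 0.0167). Col4a2, its partner chain with the shared start region, read 260 and 237 against 303 and 298. It was higher on both inhibitor arrays by 0.28 (SE 0.14), which did not pass (adjusted p = 0.383 with limma's intensity trend). Lamb1, the laminin beta 1 chain, had a brightest probe set higher by 0.15 (adjusted p = 0.466 with limma's intensity trend), while another of its probe sets fell by 0.49 (adjusted p = 0.0341). The laminin chains Lama1, Lama5 and Lamc1 differed by −0.16, −0.21 and −0.22. The nidogens Nid1 and Nid2, which link laminin to type IV collagen, differed by −0.23 and −0.11. Hspg2, which encodes the proteoglycan perlecan, differed by −0.17, and Col18a1, the source of endostatin, by −0.28 (adjusted p = 0.0834 with limma's intensity trend). By their brightest probe sets, members of 1 structure thus lay on both sides of control, and neither the laminins nor the nidogens passed.

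Glycoproteins and small proteoglycans held 4 of the 8 changes, out of 7 measured members, against 6.48% of all genes. The class was not tested as a whole. Fn1, which encodes fibronectin, the ligand of the integrin of Itga5 and Itgb1, read 2417 and 2476 in control cells and 1846 and 1840 after SB431542. The difference far exceeded the spread within either pair. Fn1 fell by 0.41 (SE 0.13), or 1.33-fold (adjusted p = 0.0021 with limma's intensity trend, 0.313 by default). Its dimmer probe set differed by −0.18 (adjusted p = 0.590). Thbs1 encodes thrombospondin 1, a matrix glycoprotein that can activate latent TGF-beta. It read 394 and 368 in control cells and 254 and 260 after SB431542, and fell by 0.57 (SE 0.13), or 1.48-fold (adjusted p = 0.0086 with limma's intensity trend). Its second probe set fell by 0.60 (adjusted p = 0.0354). Tgfbi, a TGF-beta-induced matrix adaptor that binds collagens and integrins, read 253 and 225 against 145 and 169. All control values were above all inhibitor values, and Tgfbi fell by 0.61 (SE 0.14), or 1.52-fold (adjusted p = 0.0186 with limma's intensity trend). Of its other 3 probe sets, 1 passed with a difference of −0.63, and the others gave −0.70 and 0.34 without passing.

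Sparc was the member of this class that rose. It encodes osteonectin, a collagen-binding glycoprotein that is abundant in basement membranes. Its intensity was 1697 and 1849 in control cells and 2456 and 2353 after SB431542, so that the inhibitor arrays stood well above both controls. Sparc rose by 0.44 (SE 0.13), or 1.36-fold (adjusted p = 0.0015 with limma's intensity trend, 0.306 by default). A second probe set rose by 0.46 (adjusted p = 0.0014), and another, dimmer one differed by −0.41 without passing (adjusted p = 0.283). The remaining proteoglycans and glycoproteins did not pass. Dcn, which encodes decorin, read 25 and 18 against 42 and 28. Bgn, for biglycan, differed by 0.26 (SE 0.29) and Postn, for periostin, by −0.25 (SE 0.26), with overlapping arrays in both cases.

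Among enzymes that cross-link or process collagen, Lox had the largest fold difference below control of all members. It encodes lysyl oxidase, which cross-links collagen and elastin. Lox read 65 and 61 in control cells and 24 and 40 after SB431542, a log2 difference of −1.02 (SE 0.25), or 2.03-fold lower. The inhibitor arrays differed widely between themselves, and the result missed the threshold (adjusted p = 0.0618 with limma's intensity trend). The lower inhibitor value was within the range of the bacterial probe sets, so the fold is uncertain. The mean over the 3 Lox probe sets differed by −0.48 (adjusted p = 0.496 with limma's intensity trend). Serpinh1, the collagen chaperone HSP47, differed by 0.098 (SE 0.13).

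Of the proteases and inhibitors, 1 of 5 changed, against 6.48% of all genes. Timp1, a secreted inhibitor of matrix metalloproteinases, read 765 and 647 in control cells and 473 and 531 after SB431542. The groups did not overlap, though the controls were uneven, and Timp1 fell by 0.49 (SE 0.15), or 1.40-fold (adjusted p = 0.0086 with limma's intensity trend). Mmp14, a membrane-bound collagenase and the activator of the Mmp2 enzyme, read 278 and 237 against 176 and 185. Its log2 difference of −0.51 (SE 0.15) just missed the threshold (adjusted p = 0.0502 with limma's intensity trend). Mmp2, a gelatinase that degrades type IV collagen, differed by −0.41 (SE 0.21). The other inhibitors differed by 0.11 for Timp2 and 0.0076 for Timp3.

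Among 6 integrin chains, 1 changed, against 6.48% of all genes. Itga6, whose chain forms the laminin receptors alpha 6 beta 1 and alpha 6 beta 4, read 2019 and 1808 in control cells and 2285 and 2503 after SB431542. Both inhibitor arrays were above both controls, and Itga6 rose by 0.32 (SE 0.13), or 1.25-fold (adjusted p = 0.0241 with limma's intensity trend). The second Itga6 probe set rose by 0.40 (adjusted p = 0.0074). Itga5, the fibronectin receptor chain, read 194 and 199 against 152 and 158, a log2 difference of −0.34 (SE 0.14) that did not pass (adjusted p = 0.327 with limma's intensity trend). Itgav, a chain that binds vitronectin and latent TGF-beta, differed by −0.22. The beta chains Itgb1 and Itgb5 differed by −0.0062 (SE 0.14) and 0.052 (SE 0.12), and the log2 difference of Itga3 was −0.018.

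**Figure D2:**
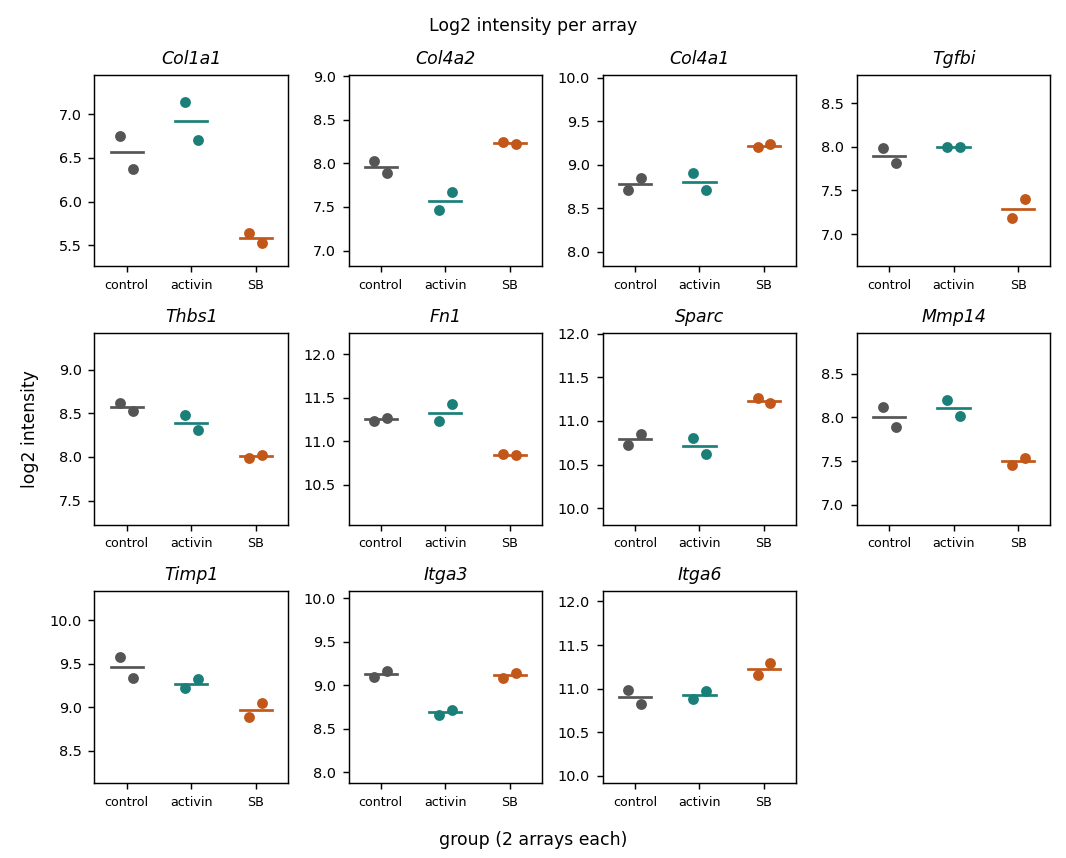
Log2 intensity of the 11 members past the threshold with the intensity trend in at least 1 comparison, with a panel per gene, 1 point per array and a line at each group's mean (SB is SB431542). The axes span equal lengths but start at different levels. Col1a1, Fn1, Thbs1, Tgfbi and Timp1 are lower on both SB431542 arrays than on the controls, and Col4a1, Sparc and Itga6 are higher.

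When single arrays were left out, the call that held throughout was that of Fn1, whose adjusted p stayed between 0.0010 and 0.0363 in all 6 fits that left out an array. The call of Sparc was lost without SB431542 replicate 1 (adjusted p = 0.0594). That of Thbs1 was lost without SB431542 replicate 1 (0.119) or replicate 2 (0.0704). Those of Tgfbi and Timp1 were lost without control replicate 1 (0.111 and 0.108) or SB431542 replicate 1 (0.316 and 0.227). Col1a1 and Col4a1 were lost without control replicate 1 (0.156 and 0.125), SB431542 replicate 1 (0.0718 and 0.188) or SB431542 replicate 2 (0.132 and 0.243). Itga6 was lost without control replicate 2 (0.170), SB431542 replicate 1 (0.0735) or SB431542 replicate 2 (0.406). With repeated quantile normalization and the trend 10 members passed, but Col4a1 and Itga6 lost their calls. With only _at probe sets and the trend, Tgfbi lost its call. Moving the columns to a common median changed the set of calls. Then Col1a1, Lox and Col6a1 passed with limma's default settings (adjusted p = 0.0168, 0.0108 and 0.0146), and with the intensity trend only Col1a1 and Lox did, while Fn1 had 0.469 and Sparc 0.507. With the mean of a gene's probe sets and the trend, Fn1 (0.126), Sparc (0.435), Col1a1 (0.0779) and Tgfbi (0.219) lost their calls.

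Many members have more than 1 probe set, which bears on how far a single one stands for a gene. The 36 members have 96 probe sets, and 30 genes have several. With the intensity trend, 14 of the 96 changed after SB431542, 6 up and 8 down, where 4.98% of all probe sets did. Of the 60 probe sets other than the brightest, 41 differed in the same direction as the brightest, 18, in 13 genes, in the opposite one, and 1, of Lamb1, had no difference. Among the 22 of these 60 with a mean over log2 7, 12 went with the brightest. Of the 18 opposed, the probe set of Lamb1 with a log2 difference of −0.49 passed (adjusted p = 0.0341 with limma's intensity trend), against 0.15 for the brightest Lamb1 probe set. The other opposed probe sets did not pass. For Itga3 they gave 0.40 and 0.56, for Hspg2 0.31 and for Itgb1 0.050 and 0.27. For Bgn they gave −0.19 and −0.42, and for Timp3 −0.26 and −0.72. For Col5a1 they gave 0.14 and 0.048, for Itga5 0.066, for Nid1 0.0095, for Timp2 −0.24 and for Itgb5 −0.021. Those of Sparc and Tgfbi are given above.

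**Figure D3:**
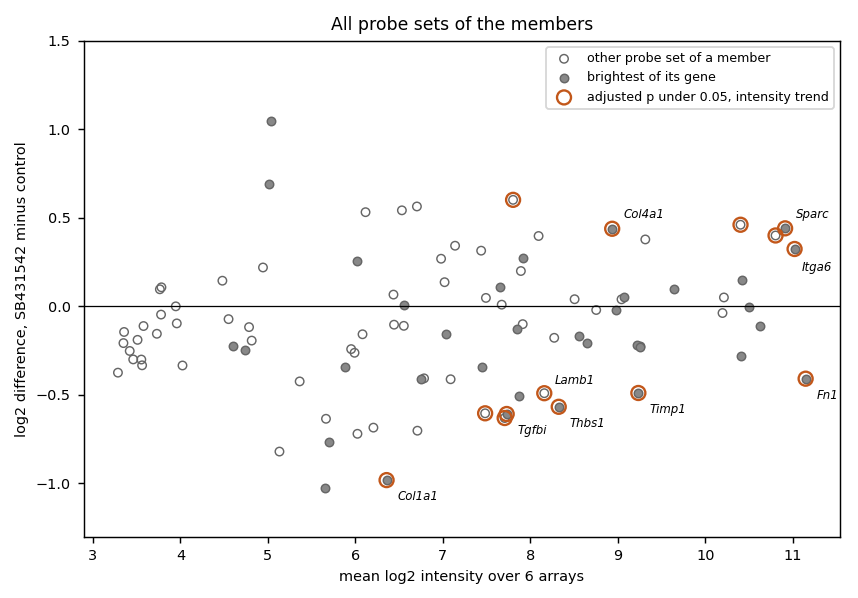
Log2 difference of SB431542 from control on the vertical axis against mean log2 intensity over the 6 arrays on the horizontal axis, with 1 point for each of the 96 probe sets of the members. Filled points are the brightest probe set of each gene, and rings mark the 14 that passed with the intensity trend, which lie at intermediate and high intensities, while the dimmest probe sets have none.

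Cells given activin for 2 h were compared with control cells to ask which of these genes respond to added ligand. None of the members passed: 0 of 36 passed with limma by default, against 0% of all genes, or with the intensity trend, against 0.148%. At an unadjusted p under 0.05, 5 members stood out, against 5.24% of all genes: Dcn, Col6a1, Col4a2, Timp2 and Itga3. The smallest default adjusted p among the members was 0.789. Activin arrays lay wholly above control for 5 members and wholly below for 11, against 14.9% and 15.2% of all genes. The median log2 difference was −0.018.

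Dcn had the largest difference after activin. It read 25 and 18 in control cells and 44 and 49 after activin, a log2 difference of 1.13 (SE 0.26), or 2.19-fold higher (adjusted p = 0.310 with limma's intensity trend). Both activin values were above both controls, but the control values lay within the range of the bacterial probe sets. With the columns moved to a common median, Dcn passed by default (adjusted p = 0.0444). The mean over the 2 Dcn probe sets differed by 0.64 (adjusted p = 0.777 with limma's intensity trend). Col6a1 read 29 and 47 after activin against 20 and 23, a log2 difference of 0.78 (SE 0.26) that did not pass. It was thus higher than control on both activin and both inhibitor arrays. Itga3, whose chain forms a laminin receptor with Itgb1, read 548 and 575 in control cells and 405 and 422 after activin, against 544 and 565 after SB431542. In this probe set the activin arrays were low, by −0.44 (SE 0.12, adjusted p = 0.142 with limma's intensity trend), but the other Itga3 probe sets gave 0.012 and 0.18. Col4a2 and Timp2 were also lower on both activin arrays, by −0.39 (SE 0.14) and −0.37 (SE 0.13). All 5 other Timp2 probe sets differed in the opposite direction, by 0.068 to 0.54, and did not pass, while Col4a2 has a single probe set. Over the members, 33 of the 60 other probe sets went with the brightest after activin and 27, in 19 genes, went against it. Of the members that fell or rose after SB431542, none differed from control after activin by more than the 0.36 of Col1a1. Fn1 differed by 0.074, Tgfbi by 0.099, Sparc by −0.081, Itga6 by 0.032, Col4a1 by 0.026, Thbs1 by −0.18 and Timp1 by −0.19.

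The treatments share their control arrays, so their differences from control were not correlated, and the members are set side by side instead. Col6a1 differed from control by 0.78 after activin and 1.05 after SB431542, and Dcn by 1.13 and 0.69. Tgfbi gave 0.099 after activin and −0.61 after SB431542, Lamc1 0.099 and −0.22, and Col4a2 −0.39 and 0.28. These 5 members were picked after their values were seen, and of these differences the fall of Tgfbi after SB431542 alone passed with the intensity trend.

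**Figure D4:**
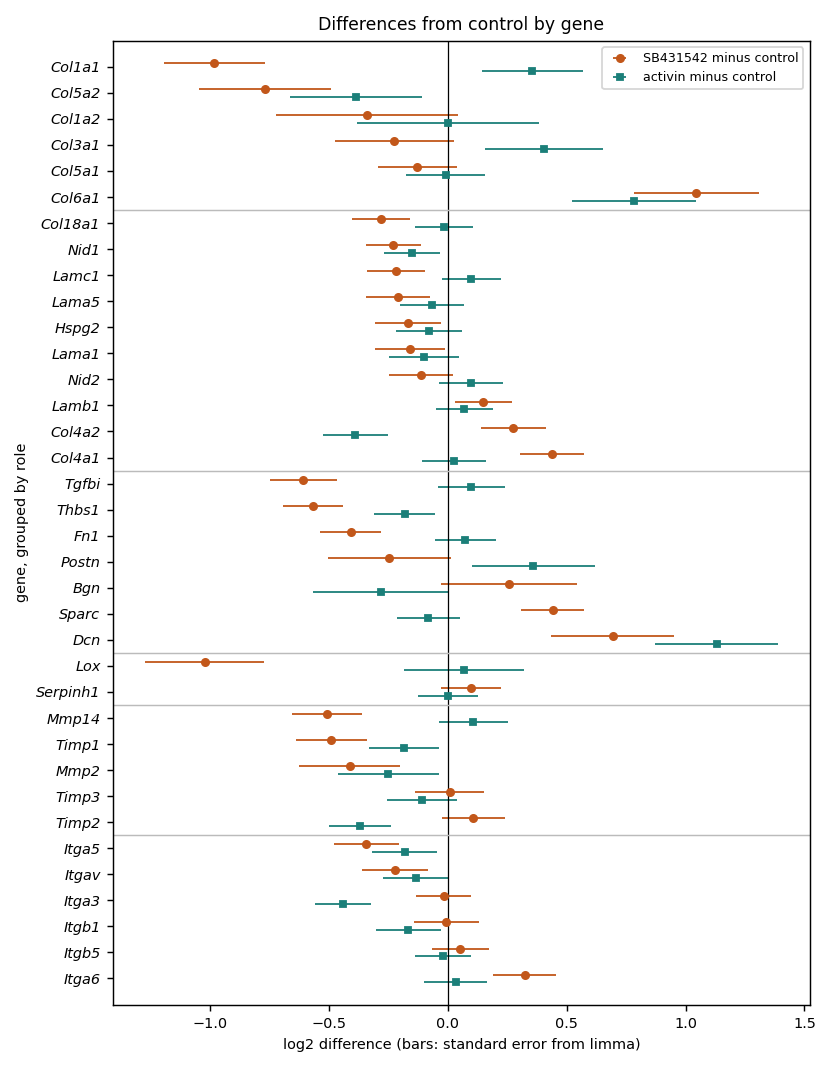
Log2 difference from control of each member after activin (2 h) and after SB431542 (24 h), with bars of 1 SE from limma's default fit. The SB431542 points spread from −1.02 for Lox to 1.05 for Col6a1, and the activin points from −0.44 for Itga3 to 1.13 for Dcn.

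Activin-treated cells were also compared with SB431542-treated cells, the states of raised and blocked signalling, although durations differ. With the intensity trend 7 of 36 members differed, against 3.37% of all genes. Col1a1, Fn1, Tgfbi and Mmp14 were higher with activin, and Col4a2, Sparc and Itga3 were lower, against 1.26% and 2.12% of all genes. Among the 18 members with a mean over log2 8, 3 differed, where 6.21% of all genes that bright did. By default 0 of 36 passed, against 0.0330% of all genes, while 13 had an unadjusted p under 0.05, against 10.3%. Activin arrays lay wholly above SB431542 arrays for 18 members and wholly below for 10, against 19.7% and 22.8% of all genes. The median log2 difference was 0.13, with 23 of 36 above 0, against 50.4% of all genes.

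Col1a1 showed the largest gap, with 141 and 104 after activin against 50 and 46 after SB431542. The log2 difference was 1.34 (SE 0.21, adjusted p = 0.0013 with limma's intensity trend, 0.239 by default). Fn1 read 2412 and 2749 after activin and was higher by 0.48 (SE 0.13, adjusted p = 4.8e-04 with limma's intensity trend). Sparc read 1784 and 1571 after activin and was lower by −0.52 (SE 0.13, adjusted p = 3.0e-04 with limma's intensity trend). The calls of Fn1 and Sparc held in all 6 fits that left out an array. With the columns moved to a common median both were lost (0.631 and 0.321), and with the mean of a gene's probe sets Fn1 kept its call (0.0342) and Sparc did not (0.261). Col1a1 lost its call without activin replicate 1 (0.0815). Tgfbi read 255 and 256 after activin, just above control, and was higher than after SB431542 by 0.71 (SE 0.14, adjusted p = 0.0085 with limma's intensity trend). Mmp14, which had just missed the threshold against control, read 295 and 259 and was higher by 0.62 (SE 0.15, adjusted p = 0.0229 with limma's intensity trend).

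Col4a2 read 176 and 204 after activin against 303 and 298 after SB431542. With control at 260 and 237, the gap was made of a lower activin value and a higher inhibitor value. The log2 difference was −0.67 (SE 0.14, adjusted p = 0.0091 with limma's intensity trend). Col4a1 differed in the same direction by −0.41, which did not pass (adjusted p = 0.0711), while its second probe set, at −0.56, did (adjusted p = 0.0486). Itga3 was lower with activin by −0.42 (SE 0.12, adjusted p = 0.0482 with limma's intensity trend), and its other probe sets gave −0.38 and −0.38 without passing. Thbs1 differed by 0.39 (adjusted p = 0.181), and its second probe set by 0.65 (adjusted p = 0.0369). Lox differed by 1.09 (SE 0.25) with 65 and 67 after activin, and did not pass (adjusted p = 0.0725 with limma's intensity trend). With the columns moved to a common median Lox and Col1a1 were the members that passed, Lox with 0.0151 by default and 0.0241 with the trend. Calls of Tgfbi were lost without activin replicate 1 (0.0729), activin replicate 2 (0.0546) or SB431542 replicate 1 (0.253). Those of Mmp14 and Col4a2 were lost without activin replicate 1 (0.247 and 0.150), SB431542 replicate 1 (0.253 and 0.149) or SB431542 replicate 2 (0.122 and 0.107). With the mean of a gene's probe sets Tgfbi, Mmp14 and Itga3 also lost theirs (0.0765, 0.223 and 0.244). That of Itga3 was lost without any of the 4 arrays compared, with the replicate number as a block (0.0590), and with repeated quantile normalization.

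The wider matrix and adhesion pathway was followed in 7 lists of 138 genes that are not members, of which 129 were measured. After SB431542, 5 rose and 3 fell with limma's intensity trend, or 6.20% of the 129, against 6.48% of all genes, and 0 passed by default. Their median log2 difference was −0.06, with 78 of 129 below 0. The 8 changes lay in 2 lists. Among other matrix glycoproteins and proteoglycans, Ccn1, a secreted integrin ligand, rose by 1.25 (adjusted p = 5.2e-08) and the syndecan Sdc4 by 0.43 (0.0065). The proteoglycans Gpc3 and Sdc1 fell by 0.42 (0.0227) and 0.40 (0.0453). Among matrix receptors and integrin adaptors, Ddr1, a collagen-binding receptor kinase, rose by 1.11 (adjusted p = 1.8e-10). The focal adhesion adaptors Bcar1 and Pxn rose by 0.38 (0.0313) and 0.39 (0.0319), and Tns3 fell by 0.33 (0.0103). Ddr1 was also the only one of the 129 to rise after activin with limma's intensity trend, by 0.45 (adjusted p = 0.0239). Ddr1 has 8 probe sets and Ccn1 has 4, and each was represented by 1 _x_at probe set. With limma's default settings their adjusted p after SB431542 was 0.127 and 0.162. Their other probe sets are not given here.

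The other 5 lists had no call against control. Of 15 other collagens, Col11a2 and Col17a1 had the smallest p after SB431542, at −0.73 and −0.49. Of 17 other basement membrane genes, Col4a5 and Lamb3 gave 0.63 and 0.77, and Col4a5 gave −0.80 after activin. Of 16 other integrins, Itga7 gave 0.85 and Itga1 −0.59. Of 16 collagen-modifying genes, Tll1 and Adamts3 gave −0.35 each, and of 17 other proteases and inhibitors Htra1 gave 0.37 and Plat 0.79. After activin the largest of these named differences was −0.98 for Spock1, and it did not pass.

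Matrix genes are also expressed by other cells that a stem cell culture can hold, so marker lists were summed on each array. Such a sum of intensities follows its brightest markers most. The sum of 8 embryonic stem cell markers was 49306 and 50417 in control cells and 43837 and 44864 after SB431542, and all 8 were above the bacterial probe sets. With limma's intensity trend 4 of them fell and 1, Klf4, rose, against 2.23% and 4.25% of all genes. The sum of 11 fibroblast and mesenchyme markers was 6052 and 6192 in control cells and lower after SB431542, at 4689 and 4761, with 6133 and 5733 after activin. Of these, 5 were above the bacterial probe sets, and Pdgfra, Twist1, Twist2, S100a4, Prrx1 and Lum were not. Vim, the intermediate filament gene that stem cells also express, fell by 0.58 (adjusted p = 4.8e-06 with limma's intensity trend), and no other marker of that list passed. The sum of 8 trophoblast markers was 9967 and 11930 in control cells and 15335 and 15358 after SB431542. Of the 8, 6 were higher with the intensity trend, against 4.25% of all genes, and Elf5 was within the bacterial range. The sum of 12 endoderm markers ran from 563 to 697 in control cells and from 605 to 610 after SB431542, with Gata6, Gata4, Afp, Foxa2, Cubn and Thbd within the bacterial range. The sum of 5 endothelial markers ran from 138 to 171 in control cells and from 123 to 168 after SB431542, with Cdh5, Tie1 and Emcn in that range. The part of these markers in the results for Col1a1, Fn1, Sparc, Col4a1 and the other members was not tested.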

How the data were processed

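Biotin-labelled RNA from 6 samples of E14Tg2a cells was hybridised to single-colour Affymetrix mouse arrays, and the authors deposited 1 table of probe set intensities on a linear scale, whole numbers from 6 to 26405. RMA, which corrects background, normalizes by quantiles and summarises probe sets, is named in the submitters' processing notes without a version. Whether other arrays were normalized with these is not given in the sources used here. The deposited columns nevertheless differ in median intensity, from 37 to 49, so equal distributions cannot be taken for granted. The 45101 rows are those of the larger whole-genome array, while the design text names the A version. All columns belonged to a sample.

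The deposited intensities were converted to log2 with no further normalization. Tests left out 64 Affymetrix control probe sets. Of the rest, 34945 carry 1 symbol, 932 several and 9160 none, in the platform annotation. Symbols of 34741 were looked up in RefSeq by Entrez identifier and 0 changed. The probe set of highest mean stood for each gene. One mean per group was fitted in limma 3.58.1 (R 4.3.3) on 45037 probe sets, with default eBayes as the main test and Benjamini-Hochberg adjustment (threshold 0.05). The fit had 3 residual degrees of freedom and a prior of 2.51, or of 34.3 with the intensity trend. The fit was tested on simulated data, with changes in bright probe sets that were larger than those of the members called against control. The outcome therefore does not bear on how far those calls hold. The small number of arrays limits the precision. Groups and replicate numbers came from the titles.

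The members and lists were chosen with earlier results of these data known. Array values are given for members past the threshold by either setting in any comparison and for the 3 largest differences in each. In each pathway list up to 4 genes past the threshold in a comparison with control were named, or else the 2 of smallest p. Alternatives were the variance prior, normalization, a filter on dim probe sets, an offset, the choice of probe set, the samples fitted, a replicate block and leaving out each array.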

Additional observations from a re-analysis of the deposited data

How the results depend on the processing

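No member passed limma's default settings, and the counts of calls came from the intensity trend: 8 for SB431542 against control and 7 for activin against SB431542, against 0 by default. Robust estimation without the trend gave 0 and 0, and the trend without robust estimation 4 and 4. These splits of the setting, and all other alternatives fitted with the intensity trend except the replicate block and left-out arrays, were chosen after seeing the data. Columns moved to a common median gave 3 calls by default for SB431542 against control, 1 for activin against control and 2 for activin against SB431542, and with the trend 2 and 2 in the comparisons with SB431542. The mean of a gene's probe sets gave 4 and 3. Leaving out 1 array gave 1 to 9 calls for SB431542 against control and 2 to 10 for activin against SB431542, with fewer arrays fitted. The cause of the other shifts was not tested. For the alternative settings, here and elsewhere in the text, the share of all genes called is not given. These counts therefore cannot tell whether the members moved with all genes.

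The median member difference ranged from −0.25 to −0.081 over left-out arrays for SB431542 against control, from −0.065 to 0.015 for activin against control and from 0.061 to 0.19 for activin against SB431542. For activin against control it was −0.083 with shifted columns and −0.079 with only _at probe sets. With only _at probe sets and the intensity trend, Lamb1 reversed after SB431542, to −0.49 (adjusted p = 0.0341), since another probe set then stood for it. Over all settings, 24, 13 and 26 of the 36 members never changed sign in SB431542 against control, activin against control and activin against SB431542. Both rescalings moved the median group difference over all genes by under 0.1. Single arrays moved otherwise, since shifting the columns moved the arrays of a group in opposite directions. Their median intensities before it were 46 and 37 in control, 38 and 49 after activin, and 43 and 41 after SB431542.

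Same-numbered arrays did not deviate together, with correlations over probe sets of 0.022, −0.14 and −0.093 in these comparisons, so the numbers were not taken as pairs. With the replicate number as a block the counts were 0 in every comparison by default, and 8, 0 and 6 with the intensity trend. The crossed pairing, with activin numbers exchanged, gave 11, 0 and 9. Values near the bacterial range are limited by array background.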
